A study of Mus musculus with 36 samples.

Results

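The transcriptome of cells reprogrammed with chemicals was compared with that of the fibroblasts they were made from. Both came from mice of the Nrl-GFP strain, in which green fluorescent protein is driven by the Nrl promoter. Nrl is the transcription factor that makes a photoreceptor a rod. The starting cells were mouse embryonic fibroblasts at passage 2, grown in IMR90 medium (MEF, n = 3 libraries). The reprogrammed cells, labelled photoreceptor-like and here called CiPC (n = 3), had been treated for 11 days with 5 chemicals in a photoreceptor induction medium. These 6 libraries were taken by their labels out of the 33 with values in the series, which lists 36 samples. All 15289 genes of the deposited table are covered, and 13719 of them were tested. Cells collected under the same treatment at day 5 and day 8, and rods of postnatal day 5 (P5 rods), are quoted as levels beside the pair (n = 3 each).

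Several features limit the pair as a model. The labels state that cells were sorted by expression of the promoter reporter, so the level of Nrl belongs to the gate and is not a finding. Genes expressed together with Nrl may be selected by the same gate. The part of the gate in their rise was not tested. They do not say how that gate was applied to MEF, which should not express the reporter. The chemicals are not named in the sources used here. Each library was made from 80 ng of total RNA, and nothing says that the 3 libraries of a group came from separate cultures, so the p-values reflect only how these samples differ among themselves, and that spread may be technical.

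Mouse embryonic fibroblasts are a mixed mesenchymal population that makes fibrous collagen, contracts through smooth muscle actin and keeps the Hox code of its place along the body. Photoreceptors are ciliated neurons of the eye. Their outer segment holds the cascade that closes a cyclic nucleotide-gated channel in light, their terminal releases glutamate from a ribbon synapse, and their identity rests on Crx, Otx2, Nrl and Nr2e3. Müller glia, which span the retina, arise from the same progenitors, take up glutamate and recycle retinoids. Hox genes are not active in the eye, and retinal cells make little fibrous matrix.

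Values are the authors' normalized CPM, read counts scaled in a way that is not stated, a level per library, and depth is unknown. Column sums were 1027766 to 1030192 in MEF and 819893 to 824208 in CiPC. Across tested genes, libraries correlated at 0.9952 to 0.9961 within MEF, 0.9901 to 0.9953 within CiPC and 0.7585 to 0.765 between the groups. Mitochondrially encoded genes took 3.07% to 3.72% of a MEF library and 4.79% to 5.34% of a CiPC library. No library stood apart from its group, although deviations from the group mean followed GC content in CiPC replicates 1 and 3, in opposite directions (r of 0.529 and -0.54 across 13601 genes, which are not independent). Deviations in MEF replicates 1 and 3 followed it more weakly, also in opposite directions (r of -0.336 and 0.261).

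Changes are given as CiPC minus MEF on the log2(CPM + 1) scale, with the SE of limma, a linear model that pools the spread over genes, and understate the change of genes near 0 CPM. A gene was called, and is said to have risen or fallen, if its change was at least 1 and its p, adjusted by the Benjamini-Hochberg method, was under 0.05. A gene that missed either is said not to have passed. CiPC had 2264 genes called higher (16.5% of those tested) and 2362 called lower (17.2%), 33.7% in all, while an adjusted p alone would call 79.7%. Libraries of CiPC lay wholly above those of MEF for 38.6% of tested genes and wholly below for 42.7%, so a gap between the groups was common. Rises of at least 4 log2 units numbered 201 and falls of that size 174. With columns rescaled to an equal sum, 3110 were higher and 1822 lower, and the median change of all genes moved from -0.053 to 0.25. The direction of a gene within that shift is therefore open to the scaling, and list counts are read beside these shares. The median of a list is over all its members in the table, tested or not, beside -0.0183 for all genes in the table. Named genes that were called had an adjusted p of at most 0.0191 (limma, 6 libraries).

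**Figure D1:**
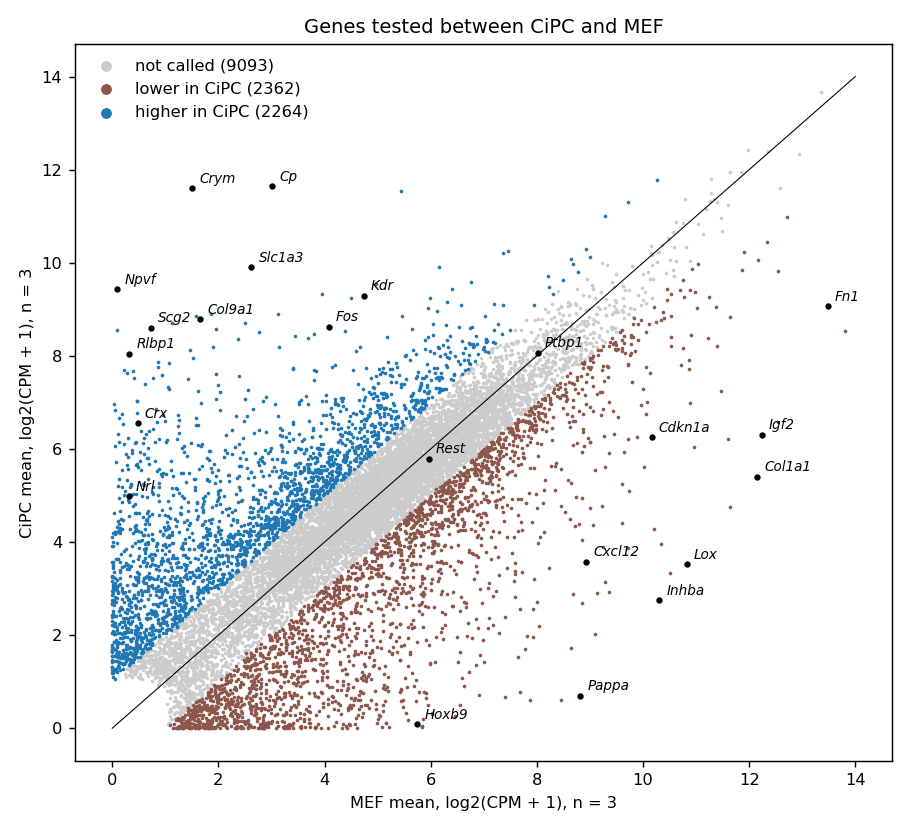
Mean level of each tested gene in CiPC (y axis) against MEF (x axis), both as log2(CPM + 1) over 3 libraries, with genes called higher in blue, lower in brown and the rest in grey; the line marks equal levels. Crym, Cp and Npvf stand far above the line, Pappa, Lox and Inhba far below it, and Rest and Ptbp1 close to it.

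The label was first checked against markers of both ends. Col1a1, a type I collagen chain, was found at 3894, 4608 and 5132 CPM in the 3 MEF libraries and at 55.2, 40.3 and 28.1 CPM in CiPC. Thy1, a surface protein of fibroblasts, was at 124, 116 and 123 against 2.02, 1.999 and 1.97 CPM. Twist1, a mesenchymal transcription factor, was at 31.4, 30.4 and 31.2 against 20.6, 20.5 and 19.1 CPM, a change of -0.60 ± 0.07 that did not pass, and Acta2, smooth muscle actin, at 6703, 6782 and 6737 against 2056, 2021 and 2012 CPM. All 4 fibroblast markers were lower in every CiPC library, but Twist1 and Acta2 were still present. Crx was at 0.407, 0.186 and 0.579 CPM in MEF and 97.8, 94.5 and 86.8 CPM in CiPC, and Otx2 at 0.239, 0.172 and 0.273 and 75.8, 73.5 and 72.9 CPM. Otx2 was at 605 ± 4.38 CPM in P5 rods (mean ± SD). Both photoreceptor factors were thus present in each CiPC library, and so were markers of glia and progenitors given below. In bulk samples such as these, fewer cells of a type and less RNA per cell cannot be told apart.

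**Figure D2:**
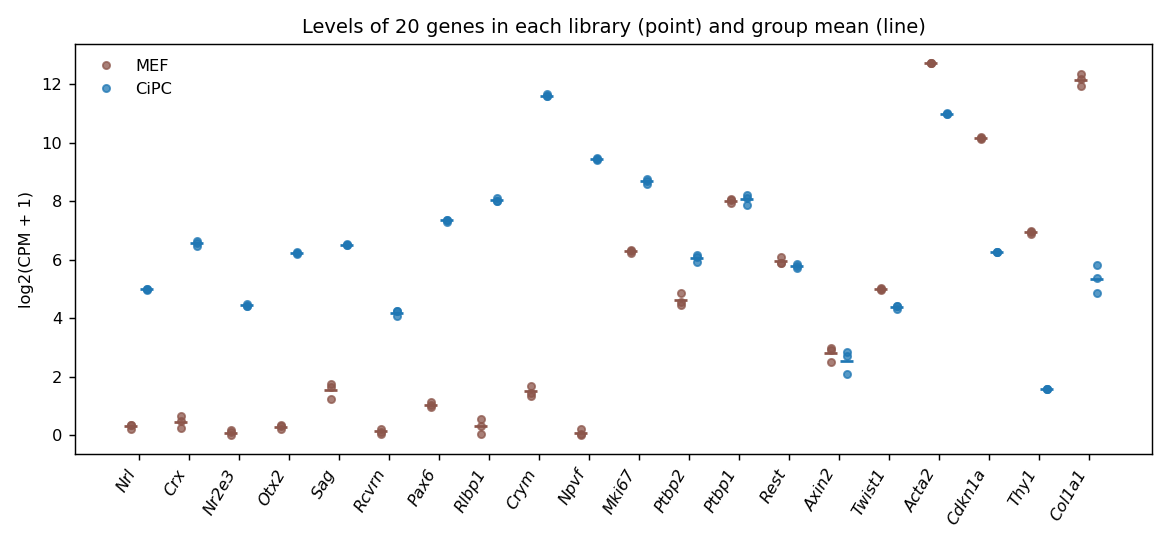
Level of 20 genes as log2(CPM + 1) on the y axis, with each library as a point and each group mean as a line, MEF in brown and CiPC in blue. Groups do not overlap for the rod, progenitor and glial genes on the left, while Ptbp1, Rest and Axin2 in the middle lie at similar heights in both.

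Transcription factors of photoreceptors were mostly higher in CiPC. Of the 16 in the table, 11 rose, 1 fell, 1 did not pass and 3 were too low to test (median 3.97), against 16.5% of all tested genes that rose. The list includes 8 that passed the filter through 1 group alone and so had to differ. The 11 that rose include Nrl, whose level belongs to the gate. Summed over a library, the list was at 440 to 479 CPM in CiPC and 6078 to 6268 CPM in P5 rods. Crx, the homeobox factor of rods and cones (chromosome 7, 15865947 to 15879968, minus strand, GRCm38), rose by 6.09 ± 0.12, and Otx2, which acts above it, by 5.93 ± 0.088. Rorb, a nuclear receptor upstream of Nrl, was at 0.758 ± 0.3 CPM in MEF and 69.9 ± 5.82 CPM in CiPC (mean ± SD, n = 3). Samd7, a polycomb partner in rods, was at 0.232 ± 0.186 against 46.2 ± 3.5 CPM and Neurod1, a basic helix-loop-helix factor, at 0.209 ± 0.0135 against 39.4 ± 3.54 CPM. Nr2e3, the rod receptor that represses cone genes, was at 0, 0.08 and 0.136 CPM in MEF and 21.4, 20.5 and 20.4 CPM in CiPC, and the gate gene Nrl at 0.271, 0.17 and 0.27 and 30.9, 30.4 and 30.7 CPM. Mef2c fell, from 25.5 ± 3.34 to 1.18 ± 0.115 CPM, and is also a muscle and neuronal factor. Esrrb, a rod nuclear receptor, stayed near 1 CPM (0.39 ± 0.196 against 0.733 ± 0.181) and was too low to test.

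Promoters of some of these genes carry letters that the homeobox domain of Crx and Otx2 is known to read. The core TAATCC was searched in either strand (TAATCC or GGATTA) in the 150 bases before each RefSeq start (GRCm38.p6). It was present in 3.6% of all 32851 promoter windows. Of the 42 called members of the photoreceptor factor, phototransduction and outer segment lists, 33 had a window, and 11 of these held a match, in 11 of 44 windows (25%). The gate gene Nrl was among the 33 and held no match. The 5 with the largest rise are shown 5′ to 3′, with the match in capitals, because these genes rose together here.
Crx (chr7:15879956-15880105, minus strand): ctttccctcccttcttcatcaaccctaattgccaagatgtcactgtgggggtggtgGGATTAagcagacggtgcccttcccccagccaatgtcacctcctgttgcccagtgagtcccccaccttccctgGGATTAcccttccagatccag
Samd7 (chr3:30746143-30746292, plus strand): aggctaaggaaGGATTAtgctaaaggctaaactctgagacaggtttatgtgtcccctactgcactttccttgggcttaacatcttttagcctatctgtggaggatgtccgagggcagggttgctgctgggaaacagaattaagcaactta
Sag (chr1:87803530-87803679, plus strand): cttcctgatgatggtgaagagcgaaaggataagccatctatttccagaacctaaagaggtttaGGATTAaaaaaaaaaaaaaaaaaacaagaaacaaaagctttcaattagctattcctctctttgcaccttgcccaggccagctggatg
Cngb1 (chr8:95306586-95306735, minus strand): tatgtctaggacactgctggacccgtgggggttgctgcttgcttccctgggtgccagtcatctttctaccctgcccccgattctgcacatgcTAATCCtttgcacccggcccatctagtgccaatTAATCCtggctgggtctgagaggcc
Rpgrip1 (chr14:52110753-52110902, plus strand): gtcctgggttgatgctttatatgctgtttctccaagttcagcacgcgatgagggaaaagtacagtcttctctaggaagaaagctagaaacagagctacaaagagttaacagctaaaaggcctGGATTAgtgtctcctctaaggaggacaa
Crx held a match at 94 and 21 bases before its start and Cngb1 at 58 and 25, while Sag had its match 87 bases before and Rpgrip1 28. Samd7 had its match 139 bases before. The windows of Pdc, Prph2, Otx2 and Neurod1, which rose too, held no match. A match is a description of these letters and no sign of binding.

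Most phototransduction genes rose, from transducin to the channel and the shutoff proteins. Of 21, 16 rose, 3 did not pass and 2 were too low to test (median 3.06), and among those tested 13 passed the filter through CiPC alone. The list summed to 682 to 698 CPM in MEF, 947 to 998 CPM in CiPC and 7331 to 7512 CPM in P5 rods. These sums include Gnb1, given below. Gnat1, the alpha subunit of rod transducin, rose by 1.15 ± 0.15, to 2.88 ± 0.52 CPM. Gngt1, the gamma subunit, was at 0.354 ± 0.125 against 14.7 ± 1.72 CPM, and Gnb1, the beta subunit that many cells use, at 658 ± 9.68 against 547 ± 17.6 CPM, a change of -0.27 ± 0.045 that did not pass. Of the phosphodiesterase, the catalytic Pde6b reached 14.96 ± 0.687 CPM and Pde6a 3.16 ± 0.591, and the inhibitory Pde6g 36.3 ± 2.18. The channel subunits Cngb1 and Cnga1 rose by 4.86 ± 0.11 and 2.88 ± 0.10 and the exchanger Slc24a1, which returns calcium, by 3.26 ± 0.10. Shutoff proteins were above every MEF library. Sag, rod arrestin, was at 2.15, 1.39 and 2.39 CPM in MEF and 90.5, 88.8 and 91.8 CPM in CiPC, and Pdc, phosducin, at 0.152, 0 and 0.108 and 61.6, 68.5 and 79.9 CPM. Grk1, the receptor kinase of rods, rose by 3.55 ± 0.097 and Rgs9, which ends the transducin signal, by 3.88 ± 0.14. Rcvrn, recoverin, was at 0.175, 0.0809 and 0.043 CPM in MEF and 18.04, 17.9 and 15.98 CPM in CiPC. Gucy2e, a guanylate cyclase, rose to 7.07 ± 0.803 CPM, while its activator Guca1b was at 0.647 ± 0.0957 against 1.39 ± 0.216 CPM and did not pass.

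Of 19 genes of the outer segment and connecting cilium, 15 rose, 3 did not pass and 1 was too low to test (median 3.31). Among the 18 tested, 6 passed the filter through 1 group alone and so had to differ. Their list summed to 679 to 688 CPM in CiPC and 10117 to 10183 CPM in P5 rods. Prph2 and Rom1, which shape the disc rim, rose by 5.54 ± 0.12 and 3.31 ± 0.14, Rp1 of the axoneme by 5.2 ± 0.11 and Impg2 of the matrix between photoreceptors by 4.69 ± 0.15. Cdhr1, the cadherin at the disc base, was at 3.58, 5.62 and 4.74 CPM in MEF and 128, 133 and 141 CPM in CiPC. Of the ciliary genes, Cep290 was at 1.47 ± 0.10, and Ttc8 (0.81 ± 0.14), Nphp4 (0.49 ± 0.15) and Spata7 (-0.76 ± 0.13) did not pass. Of 15 ribbon synapse genes, 12 rose, 1 fell, 1 did not pass and 1 was too low to test (median 2.23). Here 6 of the 14 tested passed the filter through 1 group alone. Syt1, the calcium sensor of vesicle release, was at 1.68 ± 0.15 against 181 ± 10.6 CPM and Slc17a7, the vesicular glutamate transporter, at 0.497 ± 0.303 against 36.8 ± 4.44 CPM. Cacna1f and Cacna2d4, the calcium channel subunits of the terminal, rose by 4.26 ± 0.13 and 4.6 ± 0.10, and Lrit1, a synaptic leucine-rich repeat protein, by 4.15 ± 0.11. Elfn1, which joins rods to bipolar cells, fell by 2.39 ± 0.19. Of 11 cone genes, 6 rose, 1 fell and 4 were too low to test (median 1.14). Here 4 of the 7 tested passed the filter through 1 group alone. Gnb3, the cone transducin beta subunit, which bipolar cells also express, was at 0.214, 0.372 and 0.372 CPM in MEF and 214, 205 and 192 CPM in CiPC. The cone opsin Opn1sw was at 2.15 ± 0.477 CPM in CiPC and Opn1mw at 0.0346 ± 0.06. With the cone arrestin Arr3 at 0.317 ± 0.109, these genes were under 3 CPM. Levels of the other cone genes are not given here, and 3 of the list were still called higher at a minimum of 5 CPM. The cone count fell from 6 to 2 with a pseudocount of 5.

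Most genes of retinal progenitors and of Müller glia rose as well. Of 16 progenitor and eye field factors, 13 rose, 1 fell, 1 did not pass and 1 was too low to test (median 3.51). Among the 15 tested, 7 passed the filter through 1 group alone and so had to differ. Six3, an eye field factor, was at 0.294, 0.357 and 0.467 CPM in MEF and 134, 128 and 128 CPM in CiPC, above every MEF library, and Pax6, which opens eye development, at 0.944, 1.05 and 1.2 and 164, 164 and 155 CPM. Six6 rose by 5.36 ± 0.12, Lhx2 by 5.27 ± 0.17 and Rax by 4.76 ± 0.21. Levels of Pax6, Six3 and Lhx2 in P5 rods were 32.05, 31.3 and 6.92 CPM, below those of CiPC. Meis2 fell by 1.76 ± 0.095 although Meis1 rose by 1.44 ± 0.074. Among 14 proneural factors, 6 rose, 2 fell, 2 did not pass and 4 were too low to test (median 0.68). Neurod4 rose by 6.02 ± 0.098, Insm1 by 4.17 ± 0.093 and Neurog2 by 3.41 ± 0.094, while Atoh7 and Olig2 were too low to test. Sox4 and Btg2 fell, by 1.52 ± 0.052 and 1.56 ± 0.053.

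Of 18 genes of Müller glia and retinal astrocytes, 13 rose, 1 fell, 2 did not pass and 2 were too low to test (median 3.12). Rlbp1, which carries retinaldehyde, was at 0.242, 0.035 and 0.463 CPM in MEF and 258, 258 and 273 CPM in CiPC, against 16.8 ± 0.886 CPM in P5 rods. Slc1a3, the glial glutamate transporter, was at 7.04, 3.64 and 4.81 and 918, 939 and 1007 CPM, and was already at 84.9 ± 1.94 CPM at day 8. Car2, a carbonic anhydrase, rose by 7.05 ± 0.12 and Kcnj10, the potassium channel of the glial end foot, by 6.31 ± 0.094. Gpr37, a glial receptor, rose by 6.66 ± 0.085 and Car14 by 5.54 ± 0.096. Gfap, the filament of astrocytes and reactive glia, was at 0.614 ± 0.485 against 50.3 ± 1.6 CPM and Glul, glutamine synthetase, at 43.03 ± 3.54 against 464 ± 3.55 CPM. Vim (-0.10 ± 0.051) and Apoe (0.078 ± 0.16), which fibroblasts express as well, did not pass, and Id3 fell by 1.19 ± 0.18. Aqp4, the water channel of mature Müller glia, was at 0.259 ± 0.0511 against 0.404 ± 0.107 CPM and too low to test.

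Most bipolar cell genes rose, while genes of amacrine, horizontal and ganglion cells moved both ways. Of 14 bipolar cell genes, 11 rose, 2 did not pass and 1 was too low to test (median 2.94), and 11 of those tested passed the filter through CiPC alone. Grm6, the receptor of ON bipolar cells, rose by 5.08 ± 0.10, Trpm1, its channel, by 4.18 ± 0.12 and Pcp2 by 4.08 ± 0.22, while Prkca of rod bipolar cells did not pass (-0.39 ± 0.094). Of 15 genes of amacrine, horizontal and ganglion cells, 6 rose, 2 fell, 4 did not pass and 3 were too low to test (median 0.30). Here 6 of the 12 tested passed the filter through 1 group alone. Prox1, of horizontal and amacrine cells, was at 3.12, 3.07 and 2.73 CPM in MEF and 160.4, 169 and 163 CPM in CiPC. Calb1 rose to 14.2 ± 1.88 CPM and Gad2, which makes GABA, to 5.53 ± 0.625, while Rbpms and Sncg of ganglion cells fell by 1.86 ± 0.083 and 1.37 ± 0.11. Pou4f1 of ganglion cells was at 0.594 ± 0.202 CPM and Ptf1a, which specifies amacrine cells, was listed at 0 in all 3 CiPC libraries. Of 10 pigment epithelium genes, 2 rose, 3 did not pass and 5 were too low to test (median 0.21). Rrh, a pigment epithelium opsin, rose by 5.01 ± 0.10, while the pigment genes Tyr (0.0235 ± 0.0408 CPM) and Tyrp1 (0.529 ± 0.235) and the retinal G protein receptor Rgr (0.781 ± 0.213) stayed under 1 CPM.

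**Figure D3:**
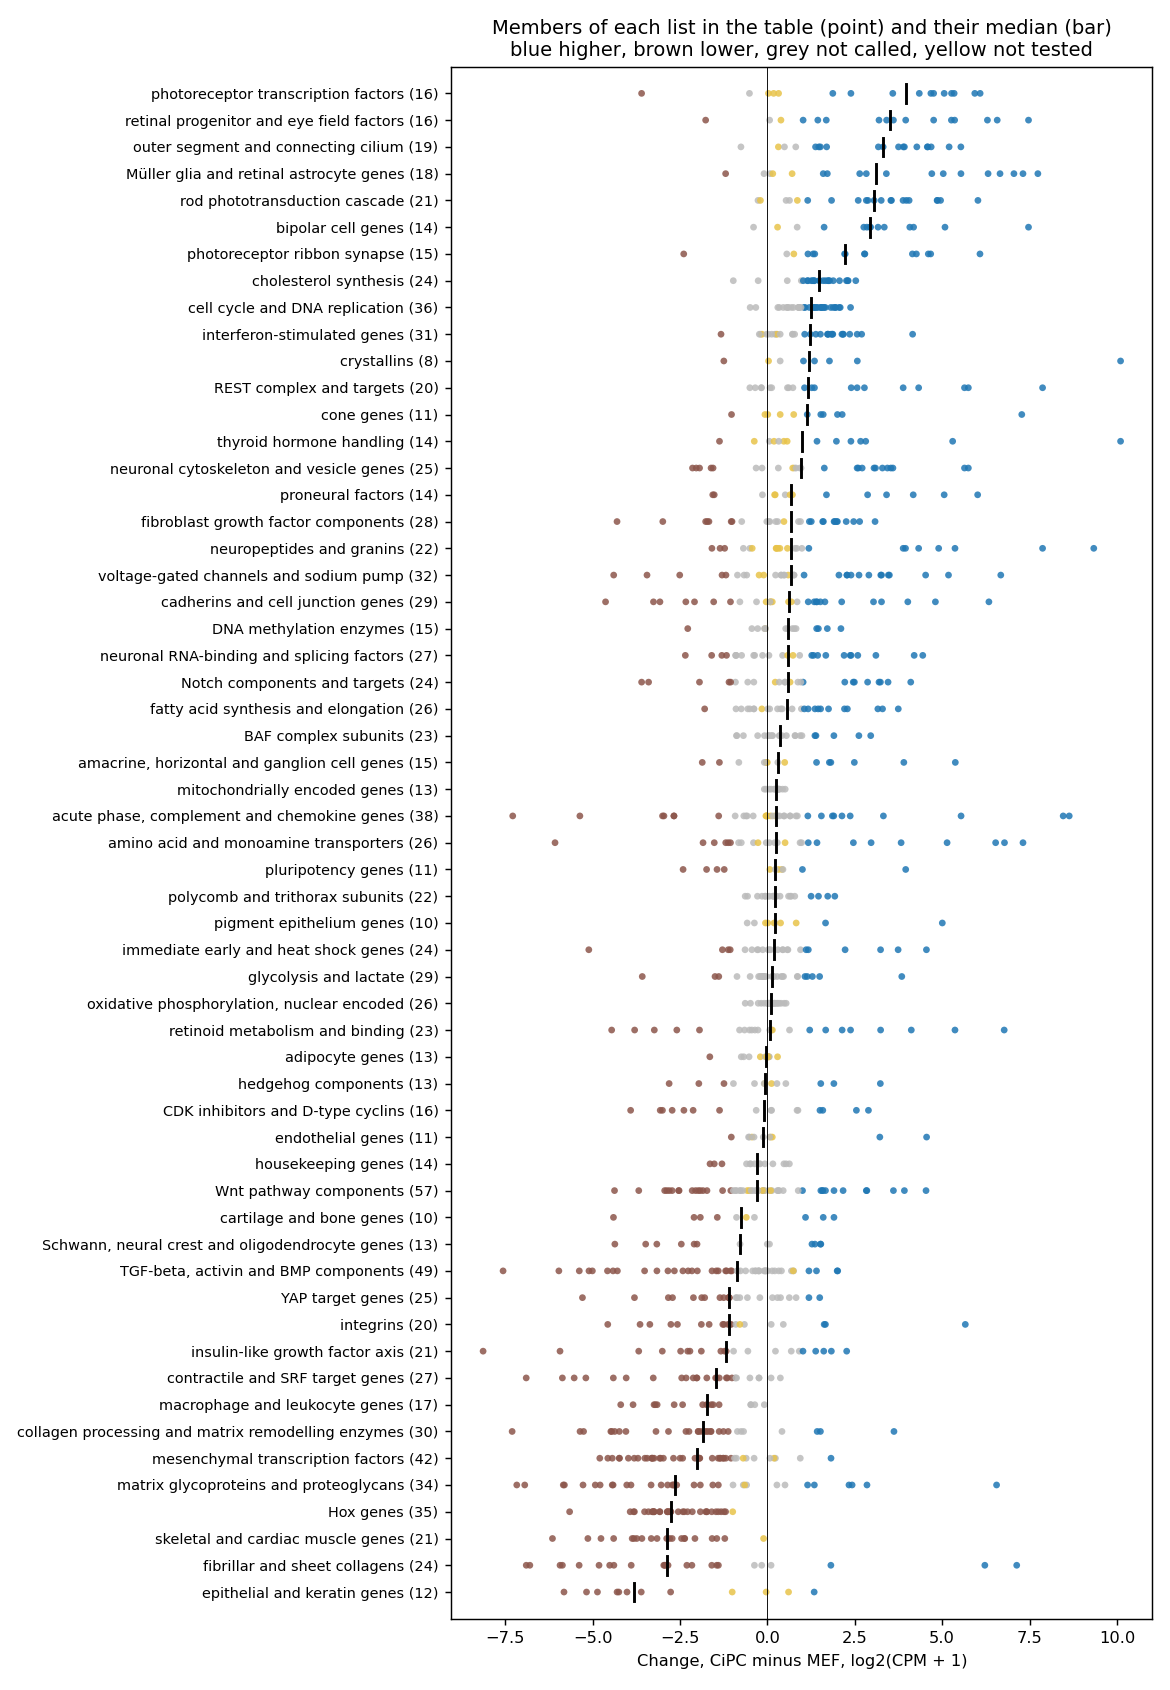
Change between CiPC and MEF (x axis, log2(CPM + 1) units) for each member in the table of the lists with at least 5 tested members, with the median of these members as a bar and their number in parentheses. Photoreceptor factors, with a median of 3.97, lie at the top beside progenitor and Müller lists, and collagen, Hox, muscle and keratin lists at the bottom.

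The largest rise of all was in Crym, a cytosolic protein that binds thyroid hormone. It was at 1.75, 1.54 and 2.24 CPM in MEF, 3198, 3069 and 3072 CPM in CiPC and 80.02 ± 5.91 CPM in P5 rods, and rose by 10.11 ± 0.086 (adjusted p = 1.81e-11, limma). Of 14 genes that handle thyroid hormone, 7 rose, 1 fell, 2 did not pass and 4 were too low to test (median 0.99). Both receptors rose, Thra from 19.1 ± 0.933 to 78.2 ± 6.36 CPM and Thrb from 0.819 ± 0.261 to 8.58 ± 1.73 CPM. Dio2, the deiodinase that makes active hormone, rose by 2.67 ± 0.095. Hr, a corepressor that thyroid hormone induces, was at 2.09, 2.44 and 1.99 CPM in MEF and 145, 129 and 102 CPM in CiPC. Klf9, another induced gene, was at 32.5 ± 0.703 against 41.04 ± 1.99 CPM and did not pass, and Slc16a10 fell by 1.37 ± 0.25. Among 8 crystallins in the table, 5 rose, 1 fell, 1 did not pass and 1 was too low to test (median 1.19). Apart from Crym, named a crystallin for its role in the marsupial lens, these were the stress chaperone Cryab (1.35 ± 0.061), the quinone reductase Cryz (2.57 ± 0.087) and the low Crybb1 and Crybb3, at 2.45 ± 0.474 and 2.09 ± 0.637 CPM. Cryl1 fell by 1.24 ± 0.14.

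Several genes of secretory granules rose. Npvf, the precursor of RFamide peptides, was at 0.17, 0.0394 and 0 CPM in MEF, 671, 686 and 713 CPM in CiPC and 0.804 ± 0.0732 CPM in P5 rods. Scg2, a granin, was at 0.778, 0.683 and 0.518 and 353, 383 and 430.4 CPM. Chgb and Chga, the chromogranins, rose by 5.37 ± 0.14 and 3.89 ± 0.12, the granule protein Scg3 by 4.33 ± 0.10 and the convertase Pcsk2, which cuts prohormones, by 4.9 ± 0.14. Of 22 neuropeptide and granin genes, 8 rose, 3 fell, 5 did not pass and 6 were too low to test (median 0.68). Of the 16 tested, 12 passed the filter through 1 group alone and so had to differ. Cartpt was at 1.4 ± 0.102 CPM in CiPC, and Penk, Adcyap1 and Tac1, which encode other peptides, fell by 1.59 ± 0.15, 1.35 ± 0.13 and 1.22 ± 0.13. Of 25 genes of neuronal cytoskeleton and vesicles, 12 rose, 5 fell, 7 did not pass and 1 was too low to test (median 0.96). Those that rose were led by vesicle genes, Syp (5.75 ± 0.14), Snap25 (5.64 ± 0.089), Syt11 (3.53 ± 0.073) and Sv2a (3.43 ± 0.12), with the dendritic Map2 (3.59 ± 0.07) and the axonal Mapt (3.09 ± 0.16). The 5 that fell were Tubb3, Dcx, Stmn4, Gap43 and Stx1a, of which Tubb3, the neuronal tubulin, was at 66.8, 64.1 and 70.4 CPM in MEF and 18.9, 16.7 and 14.9 CPM in CiPC and Dcx, of migrating neurons, at 8.87, 8.11 and 6.73 and 2.15, 1.66 and 2.28 CPM. The groups did not overlap for either gene.

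Channel and pump subunits moved in both directions. Among 32 voltage-gated channel and sodium pump genes, 14 rose, 5 fell, 10 did not pass and 3 were too low to test (median 0.68). Atp1b2, the pump's beta subunit in photoreceptors and glia, was at 2.22, 1.15 and 1.94 CPM in MEF and 266, 277 and 294 CPM in CiPC. Cacng4 and Cacna1h, calcium channel subunits, rose by 4.53 ± 0.28 and 3.49 ± 0.23, and the sodium channel Scn8a by 3.46 ± 0.22. Kcnv2, a potassium channel subunit of the inner segment, rose by 2.39 ± 0.11. The sodium channel subunit Scn3b (-4.39 ± 0.094) and the cardiac and smooth muscle channel Cacna1c (-2.51 ± 0.10) fell, and so did Kcnd2 (-1.3 ± 0.10).

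Transporters moved in both directions too. Of 26 amino acid and monoamine transporters, 9 rose, 6 fell, 9 did not pass and 2 were too low to test (median 0.25). Slc6a11, which takes up GABA mainly in glia, was at 0, 0.0826 and 0.0444 CPM in MEF and 118, 113 and 111 CPM in CiPC. The glutamine transporter Slc38a3 rose by 5.14 ± 0.097 and the glutamate transporter Slc1a2 by 3.83 ± 0.14. Slc38a4, of the placenta and embryo, was at 222, 218 and 216 CPM in MEF and 1.88, 2.44 and 2.5 CPM in CiPC. The arginine carriers Slc7a1, Slc7a2 and Slc7a3 fell, by 1.52 ± 0.05, 1.19 ± 0.15 and 1.84 ± 0.099, with Slc38a2 (-1.12 ± 0.054) and Slc7a7 (-1.05 ± 0.11). Groups did not overlap for Slc6a11 or Slc38a4.

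Regulators that differ between neurons and other cells were examined next. Rest, which silences neuronal genes in other cells, was at 66.9, 58.2 and 58.7 CPM in MEF and 57.4, 54.01 and 51.7 CPM in CiPC, a change of -0.17 ± 0.074 (adjusted p = 0.0638, limma) that was 0.15 with equal column sums. Its corepressors Rcor1 (-0.35 ± 0.058), Hdac1 (-0.17 ± 0.057), Hdac2 (0.078 ± 0.078) and Sin3a (0.13 ± 0.10) did not pass either, while Rcor2 rose by 1.06 ± 0.18. Of the 20 complex members and targets, 11 rose and 9 did not pass (median 1.17), and the 11 that rose were the targets Scg2, Syp, Snap25, Scg3, Chga, Bsn, Stmn2, Unc13a and Celf4, with Rcor2 and the phosphatase Ctdspl. In P5 rods Rest was at 10.98 ± 0.145 CPM. The part of Rest RNA in the rise of these targets was not tested.

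Ptbp1, the splicing repressor of non-neuronal cells, was at 246, 261 and 266 CPM in MEF and 296, 273 and 232 CPM in CiPC, with overlapping groups, against 109 ± 3.97 CPM in P5 rods. Ptbp2, its neuronal paralogue, rose by 1.44 ± 0.11, from 23.7 ± 3.68 to 65.7 ± 5.47 CPM, and Ptbp3 did not pass (-0.36 ± 0.073). Across 27 RNA-binding and splicing factors of neurons, 11 rose, 4 fell, 10 did not pass and 2 were too low to test (median 0.58). Srrm4, which promotes neuronal microexons, was at 5.52, 6.23 and 6.61 CPM in MEF and 38.1, 44.5 and 42.7 CPM in CiPC. Msi1, of neural progenitors and photoreceptors, was at 5.25, 6.15 and 6.95 and 137, 135 and 116 CPM. Celf3 and Elavl3 rose by 4.45 ± 0.21 and 3.11 ± 0.13, Celf2 by 2.4 ± 0.052 and Nova1 by 2.37 ± 0.21. Rbfox2, Mbnl1 and the epithelial Esrp2 fell, by 1.59 ± 0.053, 1.17 ± 0.063 and 2.35 ± 0.15, with Celf5 (-1.3 ± 0.16), and Rbfox3 was too low to test (0.743 ± 0.144 CPM).

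Most chromatin subunits did not pass, and neither did most genes tested, of which 33.7% were called and 16.5% rose. The counts below are to be read beside these shares. Of 23 subunits of the BAF remodelling complex, 5 rose and 18 did not pass (median 0.35). Actl6b, the neuronal subunit, was at 0.0245, 0.0454 and 0.1 CPM in MEF and 4.75, 5.01 and 6.91 CPM in CiPC, while its counterpart Actl6a was at 43.997 ± 1.82 against 77.4 ± 5.95 CPM and did not pass (0.80 ± 0.072). Dpf3, another neuronal and muscle subunit, rose by 2.96 ± 0.11 and the ATPase Smarca2 by 1.9 ± 0.10, with Smarcd1 (1.39 ± 0.07) and Bcl7a (1.36 ± 0.089), while the ATPase Smarca4 was at 0.029 ± 0.074. With equal column sums, 9 subunits passed. Among 22 polycomb and trithorax subunits, 4 rose and 18 did not pass (median 0.22), and those that rose were Cbx7, Ezh2, Jarid2 and Phf19. Ezh2, the methyltransferase, was at 23.96 ± 4.53 against 81.2 ± 11.6 CPM. Of 15 DNA methylation enzymes, 4 rose, 1 fell, 9 did not pass and 1 was too low to test (median 0.59). Tet1, which oxidises methylcytosine, rose by 2.11 ± 0.25, the replication-coupled Uhrf1 and Dnmt1 by 1.72 ± 0.089 and 1.46 ± 0.071 and Dnmt3b by 1.41 ± 0.21, while Gadd45g fell by 2.28 ± 0.18. Of 11 pluripotency genes, 2 rose, 4 fell, 2 did not pass and 3 were too low to test (median 0.23). Sox2, also a progenitor factor of the retina, was at 1.34, 1.36 and 1.2 CPM in MEF and 35.9, 35.01 and 33.4 CPM in CiPC, and Mycn rose by 1.0 ± 0.10. Klf4 and Myc fell by 2.41 ± 0.095 and 1.74 ± 0.10, with Lin28b (-1.44 ± 0.10) and Klf2 (-1.23 ± 0.14). Pou5f1, at 10.9 ± 0.451 CPM at day 8, was listed at 0 in all 3 MEF libraries and was at 0.0532 ± 0.0685 CPM in CiPC.

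Hox genes, which mark position along the body, were at or near 0 in CiPC. Of 35 in the table, 34 fell and 1 was too low to test (median -2.77), and all 34 had passed the filter through MEF alone, so the levels and not the count carry the result. Hoxb9 was at 50.6, 53.1 and 53.7 CPM in MEF and 0.0394, 0.0704 and 0.0708 CPM in CiPC. Hoxd13, the limb-tip gene, was at 14.3, 13.4 and 11.8 and 0, 0 and 0.0334 CPM and Hoxa9 at 7.81, 9.14 and 8.57 and 0, 0.0168 and 0 CPM. Hoxb2 and Hoxa10, at 14.2 ± 1.07 and 13.2 ± 0.502 CPM in MEF, were listed at 0 in all 3 CiPC libraries, as were 18 Hox genes in all. The pattern held in each cluster. The 11 Hoxa genes (chromosome 6, 52155590 to 52260880) summed to 66.1 to 68.1 CPM in MEF and 0.0363 to 0.214 CPM in CiPC. The 8 Hoxb genes (chromosome 11, 96271457 to 96354012) summed to 100.1 to 109 and 0.0394 to 0.306 CPM. The Hoxc cluster on chromosome 15 went from 43.7 to 45.7 CPM to 0.253 to 0.452, and the Hoxd cluster on chromosome 2 from 36.1 to 37.3 to 0.0391 to 0.179. At day 8 the clusters were still at 20.6 CPM (Hoxd) to 110.0 CPM (Hoxa), and in P5 rods each summed to at most 1.17 CPM.

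**Figure D4:**
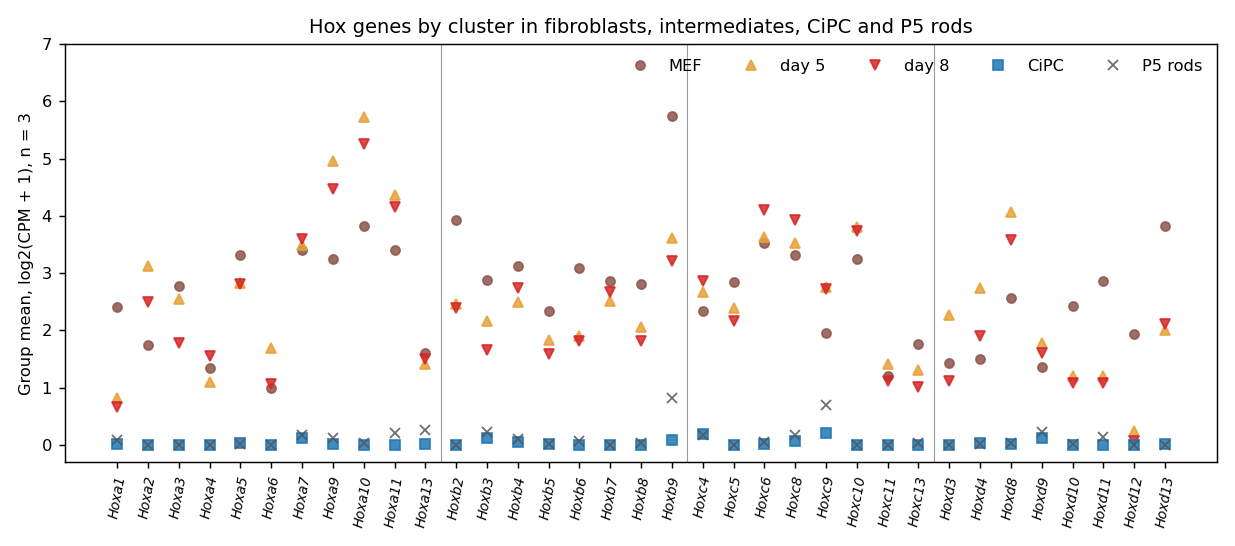
Mean level of each Hox gene as log2(CPM + 1) on the y axis, by cluster and number on the x axis, over 3 libraries of each group. CiPC (blue squares) and P5 rods (crosses) lie at or near 0, below MEF for each gene and below day 5 and day 8 cells for most, Hoxd12 being near 0 there too.

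Most transcription factors of mesenchyme fell too. Of 42 in the table, 1 rose, 32 fell, 7 did not pass and 2 were too low to test (median -2.01), against 17.2% of all tested genes that fell, and 18 of those tested had passed the filter through MEF alone. Prrx1, of limb and craniofacial mesenchyme, was at 319, 287 and 287 CPM in MEF and 10.8, 8.07 and 10.6 CPM in CiPC. Alx4 fell by 4.56 ± 0.14, Tbx15 by 4.44 ± 0.087, Msx2 by 4.24 ± 0.098, Osr1 by 4.23 ± 0.15 and Hic1 by 3.98 ± 0.17. Snai1 and Snai2, which repress epithelial genes, fell by 3.08 ± 0.12 and 2.97 ± 0.12, and Zeb1 by 1.27 ± 0.076, while Zeb2 did not pass (0.23 ± 0.054). Twist2 fell by 3.31 ± 0.12 although its relative Twist1 did not pass. Nr2f1, which is active in retina and neural crest alike, was the single gene that rose, from 11.9 ± 0.419 to 44.7 ± 4.7 CPM.

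Most collagen genes fell. Among 24 collagen chains, 3 rose, 18 fell and 3 did not pass (median -2.88). Col1a2 was at 2995, 3272 and 3362 CPM in MEF and 28.6, 28.2 and 21.6 CPM in CiPC, and Col1a1 fell by 6.79 ± 0.21. Col12a1, Col3a1, Col5a2 and Col11a1 fell by 5.93 ± 0.078, 5.86 ± 0.11, 5.38 ± 0.061 and 4.81 ± 0.077. Col3a1 stood at 22697 ± 876 CPM at day 8, against 838 ± 35.1 in MEF and 13.6 ± 2.58 in CiPC, below both. Of the basement membrane chains, Col4a1 fell from 3208 ± 40.6 to 453 ± 88.3 CPM, and Col4a5 did not pass (0.11 ± 0.045). Col9a1, of cartilage and the vitreous, was at 2.05, 2.39 and 1.97 CPM in MEF and 497, 444 and 382 CPM in CiPC. Col23a1, a transmembrane collagen, rose by 6.22 ± 0.096 and Col18a1, also of basement membranes, by 1.82 ± 0.15.

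Of 34 matrix glycoproteins and proteoglycans, 6 rose, 22 fell, 5 did not pass and 1 was too low to test (median -2.63). Fn1, fibronectin, was at 11142, 11682 and 11535 CPM in MEF and 543, 553 and 515 CPM in CiPC, and Thbs1, thrombospondin, at 14170.1, 14609 and 14419 and 375, 372 and 367 CPM. Fbln2, Postn, Eln and Fbln5, all of elastic or fibrous matrix, fell by 7.17 ± 0.071, 6.94 ± 0.13, 5.84 ± 0.095 and 5.81 ± 0.067. The 6 that rose were the testican Spock1 (6.56 ± 0.11), the fibrillin Fbn2 (2.85 ± 0.068), the neural proteoglycans Bcan (2.43 ± 0.16) and Ncan (2.34 ± 0.11) and the laminins Lama1 (1.34 ± 0.072) and Lama5 (1.15 ± 0.15). Within the fibrillins, Fbn1 fell by 2.85 ± 0.046 while Fbn2 reached 1183 ± 102 CPM. Of 30 enzymes that process collagen and remodel matrix, 3 rose, 23 fell and 4 did not pass (median -1.85). Lox, which crosslinks collagen, was at 1897, 1778 and 1769.9 CPM in MEF and 10.1, 10.6 and 10.9 CPM in CiPC, and Mmp2, Loxl4, P4ha3, Timp1 and Timp3 fell by 5.36 ± 0.073, 5.26 ± 0.10, 4.48 ± 0.12, 4.45 ± 0.05 and 4.37 ± 0.045. Timp4 (3.62 ± 0.21), Adamts1 (1.52 ± 0.053) and Mmp15 (1.43 ± 0.11) rose.

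Adhesion genes moved in both directions. Among 20 integrins, 3 rose, 12 fell, 4 did not pass and 1 was too low to test (median -1.1). Itga5, the fibronectin receptor chain, was at 926, 970.1 and 949 CPM in MEF and 80.4, 76.5 and 68.8 CPM in CiPC, and the collagen receptor chain Itga11 fell by 4.57 ± 0.17. Itga8, Itga7, Itgb3 and Itgb1 fell by 3.36 ± 0.19, 2.76 ± 0.079, 2.57 ± 0.081 and 1.89 ± 0.06. Itgb8, of neural progenitors and glia, was at 3.01, 2.54 and 3.01 CPM in MEF and 192, 195 and 195 CPM in CiPC, and the laminin receptor chain Itga3 (1.66 ± 0.11) and Itga9 (1.63 ± 0.16) rose. With equal column sums, 7 integrins fell in place of 12. Of 29 cadherin and junction genes, 12 rose, 7 fell, 4 did not pass and 6 were too low to test (median 0.61). Crb1, of the outer limiting membrane of the retina, was at 0.129, 0.134 and 0.191 CPM in MEF and 86.995, 93.7 and 95.9 CPM in CiPC, and its relative Crb2 and the photoreceptor scaffold Mpp4 rose by 2.13 ± 0.13 and 4.02 ± 0.13. Cdh4, retinal cadherin, rose by 4.81 ± 0.087, Chl1 by 3.27 ± 0.091 and Gjd2, the neuronal connexin, by 3.04 ± 0.094. Cdh2, the neural cadherin, was already at 401 ± 12.9 CPM in MEF and reached 1077 ± 23.3. Cdh3 (-4.63 ± 0.13), Cdh10 (-3.26 ± 0.12), Gja1, the main connexin of fibroblasts (-3.07 ± 0.054), Cdh15 (-2.33 ± 0.12), Cldn1 (-2.08 ± 0.11), L1cam (-1.53 ± 0.11) and Cdh11 (-1.05 ± 0.056) fell.

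Most contractile genes fell. Of 27 contractile genes and targets of serum response factor, 19 fell and 8 did not pass (median -1.48). Tagln, transgelin, was at 3649, 3798 and 3699 CPM in MEF, 8.45 ± 1.93 CPM at day 8 and 977, 939 and 826 CPM in CiPC, and Acta2 was at 72.4 ± 2.77 CPM at day 8. Both means were higher in CiPC than at day 8. Des, Actg2, Myh11, Tpm2, Cnn1 and Lmod1 fell by 6.9 ± 0.085, 5.86 ± 0.094, 5.53 ± 0.088, 5.19 ± 0.078, 4.41 ± 0.078 and 4.04 ± 0.09. Srf (-0.24 ± 0.12) and the coactivator gene Mkl2 (-0.24 ± 0.06) did not pass, while Mkl1 fell by 2.01 ± 0.13. The CArG box that the factor reads was found in the 150 bases before the start in 0.916% of all promoter windows. Of the 19 called members, 15 had a window, and it lay in 3 of their 18 windows (16.7%), those of Fhl2 and Cnn2.
The Fhl2 promoter, whose gene fell by 3.26 ± 0.066, shows it in capitals, 5′ to 3′.
Fhl2 (chr1:43196762-43196911, minus strand): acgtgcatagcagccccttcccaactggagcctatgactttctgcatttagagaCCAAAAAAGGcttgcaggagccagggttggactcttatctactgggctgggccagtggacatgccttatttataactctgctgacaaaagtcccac
Among 25 YAP target and pathway genes, 2 rose, 13 fell and 10 did not pass (median -1.08), or 8 in place of 13 that fell with equal column sums. Ankrd1 fell by 5.29 ± 0.072 and Ctgf by 2.83 ± 0.045, but Cyr61, which shares its regulation with Ctgf, was at 873, 876 and 895 CPM in MEF and 965, 973 and 990.4 CPM in CiPC (0.15 ± 0.041). Axl (-2.71 ± 0.051), Rbms3 (-3.8 ± 0.082) and Crim1 (-2.11 ± 0.063) fell too, and Nuak2 (1.5 ± 0.068) and Tgfb2 (1.19 ± 0.067) rose.

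Components of TGF-beta family signalling fell more often than they rose. Of 49 in the table, 4 rose, 23 fell, 21 did not pass and 1 was too low to test (median -0.86). Inhba, the activin subunit, was at 1231, 1259 and 1313 CPM in MEF and 5.63, 5.53 and 6.01 CPM in CiPC. The antagonists Grem1 and Fst fell by 5.38 ± 0.092 and 5.1 ± 0.099, and the ligand Gdf6 by 4.57 ± 0.08. Tgfbr2, the type II receptor, fell by 4.41 ± 0.067, while Tgfbr1 (-0.25 ± 0.059) and the effectors Smad2 (-0.42 ± 0.091), Smad3 (0.32 ± 0.047) and Smad4 (-0.33 ± 0.07) did not pass. Smad7, the feedback inhibitor, fell from 87.5 ± 3.94 to 8.92 ± 0.698 CPM. Bambi (2.01 ± 0.06), Bmp7 (2.0 ± 0.13), Id2 (1.41 ± 0.07) and Tgfb2 rose, although Tgfb1 (-2.42 ± 0.12) and Tgfb3 (-2.84 ± 0.05) fell.

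Components of fibroblast growth factor signalling moved in both directions. Of 28 in the table, 12 rose, 7 fell, 8 did not pass and 1 was too low to test (median 0.68). Dusp6, which inactivates ERK, was at 66.4, 68.9 and 60.3 CPM in MEF and 401, 412 and 421 CPM in CiPC, and Etv5, a target factor, at 45.8, 45.2 and 43.5 and 253, 252 and 254 CPM. Etv1 rose by 3.08 ± 0.084, Spred1 by 2.0 ± 0.073, Spry2 by 1.98 ± 0.05 and Spry4 by 1.91 ± 0.055. Fgf15, the ligand of retinal progenitors, was at 0.129, 0.318 and 0.0854 CPM in MEF and 5.07, 3.64 and 5.26 CPM in CiPC. The ligands Fgf7 and Fgf10, which mesenchyme sends to epithelium, and Fgf5 and Fgf18 fell, Fgf7 by 4.3 ± 0.11, Fgf10 by 1.72 ± 0.11, Fgf5 by 1.67 ± 0.11 and Fgf18 by 1.03 ± 0.11, as did Fgf2 (-1.76 ± 0.071), the receptor Fgfr2 (-2.99 ± 0.097) and Dusp4 (-1.01 ± 0.065). Fgfr1 was at 207 ± 7.3 against 215 ± 34.2 CPM and did not pass. Of 24 immediate early and heat shock genes, 6 rose, 4 fell and 14 did not pass (median 0.20). Fos, an immediate early gene, was at 14.2, 16.8 and 16.8 CPM in MEF and 415, 397 and 373 CPM in CiPC, and Egr1 at 60.2, 62.8 and 65.3 and 644, 602 and 559 CPM. Fosb rose by 3.74 ± 0.12 and Egr3 by 2.22 ± 0.19, while Jun (0.44 ± 0.11) and Atf3 (0.57 ± 0.089) did not pass. Neither the part of growth factor signalling nor that of cell sorting in these rises was tested. Hspb1, a small heat shock protein, fell by 5.11 ± 0.086, with Hspa1b (-1.29 ± 0.19), whose reads a near-identical copy can share, Junb (-1.12 ± 0.36, with libraries that overlap, or -0.72 without CiPC replicate 3) and Fosl2 (-1.06 ± 0.055).

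Notch components moved in both directions. Of 24, 9 rose, 5 fell, 8 did not pass and 2 were too low to test (median 0.58). Notch1, the receptor of neural progenitors, was at 42.7, 45.6 and 47.1 CPM in MEF and 286, 293 and 191 CPM in CiPC, while Notch3, of mural cells and fibroblasts, was at 51.5, 56.97 and 60.3 and 4.99, 4.98 and 3.45 CPM. The target Hes5 was listed at 0 in all 3 MEF libraries and at 11.3, 8.89 and 5.31 CPM in CiPC. Dtx1 rose by 4.1 ± 0.15, the glycosyltransferase Lfng by 3.45 ± 0.15, the feedback gene Nrarp by 3.23 ± 0.095 and the ligand Dll1 by 2.87 ± 0.23. Jag1 (-3.6 ± 0.084), Jag2 (-1.1 ± 0.20), Heyl (-1.94 ± 0.17) and Rbpj, the DNA-binding partner (-1.05 ± 0.067), fell. Of 57 Wnt components, 12 rose, 16 fell, 24 did not pass and 5 were too low to test (median -0.30). Fzd5, the Frizzled of the eye field, was at 16.5, 16.8 and 16.9 CPM in MEF and 218, 216 and 211 CPM in CiPC, and Wnt5b, Lgr5, Wnt7b and Dkk3 rose by 4.54 ± 0.13, 3.92 ± 0.15, 2.85 ± 0.12 and 2.83 ± 0.045. Rspo3 (-4.37 ± 0.11), Nkd2 (-3.68 ± 0.16), Wnt5a (-2.94 ± 0.068), Ror2 (-2.88 ± 0.10), Wnt16 (-2.81 ± 0.14) and Fzd7 (-2.72 ± 0.065) fell. Axin2, the feedback gene, was at 4.74, 6.6 and 6.98 CPM in MEF and 5.54, 6.22 and 3.27 CPM in CiPC, overlapping (-0.26 ± 0.21), and Ctnnb1, beta-catenin, did not pass (-0.12 ± 0.047). Of 13 hedgehog genes, 3 rose, 3 fell, 5 did not pass and 2 were too low to test (median -0.077). Ptch1, receptor and target, rose by 1.9 ± 0.088 and the coreceptors Cdon and Gas1 by 3.23 ± 0.075 and 1.53 ± 0.076, while Gli1 was too low to test (0.241 ± 0.185 against 0.178 ± 0.198 CPM) and Disp1 (-2.81 ± 0.097), Boc (-1.96 ± 0.12) and Hhip (-1.24 ± 0.17) fell.

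Related retinoid genes moved apart. Of 23, 8 rose, 5 fell, 9 did not pass and 1 was too low to test (median 0.071). Aldh1a1, the dorsal retinal enzyme that makes retinoic acid, was at 15.8, 14.3 and 13.6 CPM in MEF and 589, 637 and 699.5 CPM in CiPC, while Aldh1a2, the mesodermal enzyme, was at 27.4, 27.6 and 28.4 and 2.54, 1.76 and 1.94 CPM. Cyp26a1, which degrades retinoic acid, rose by 4.12 ± 0.11, and its relative Cyp26b1 fell by 3.8 ± 0.11. Rbp3, the carrier between photoreceptors and epithelium, was at 0.694, 0.428 and 0.964 CPM in MEF, 203, 185 and 164 CPM in CiPC and 4234 ± 162 CPM in P5 rods. Rdh12 (3.24 ± 0.13), Rdh10 (2.14 ± 0.084) and the receptor Rarb (1.67 ± 0.079) rose, and Crabp2 (-4.45 ± 0.10), Rarg (-2.59 ± 0.16) and Dhrs3 (-1.94 ± 0.088) fell. Of 21 genes of the insulin-like growth factor axis, 5 rose, 11 fell and 5 did not pass (median -1.18). Igf2, the fetal ligand, was at 4609.9, 4746 and 5112 CPM in MEF and 85.1, 78.5 and 71.02 CPM in CiPC, and Pappa, the protease that frees the ligand from its binding proteins, at 466, 445 and 443 and 0.445, 0.825 and 0.594 CPM. Igfbp7 (-3.68 ± 0.06), Igf2r (-3.0 ± 0.046), Igfbp6 (-2.48 ± 0.15) and Pappa2 (-2.28 ± 0.26) fell. Insr, the insulin receptor, rose by 2.27 ± 0.097, with Stc1 (1.83 ± 0.10), Igfbp4 (1.61 ± 0.12), Igfbp3 (1.38 ± 0.048) and Igfbp2 (1.02 ± 0.12), while Igf1r did not pass (0.23 ± 0.047).

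**Figure D5:**
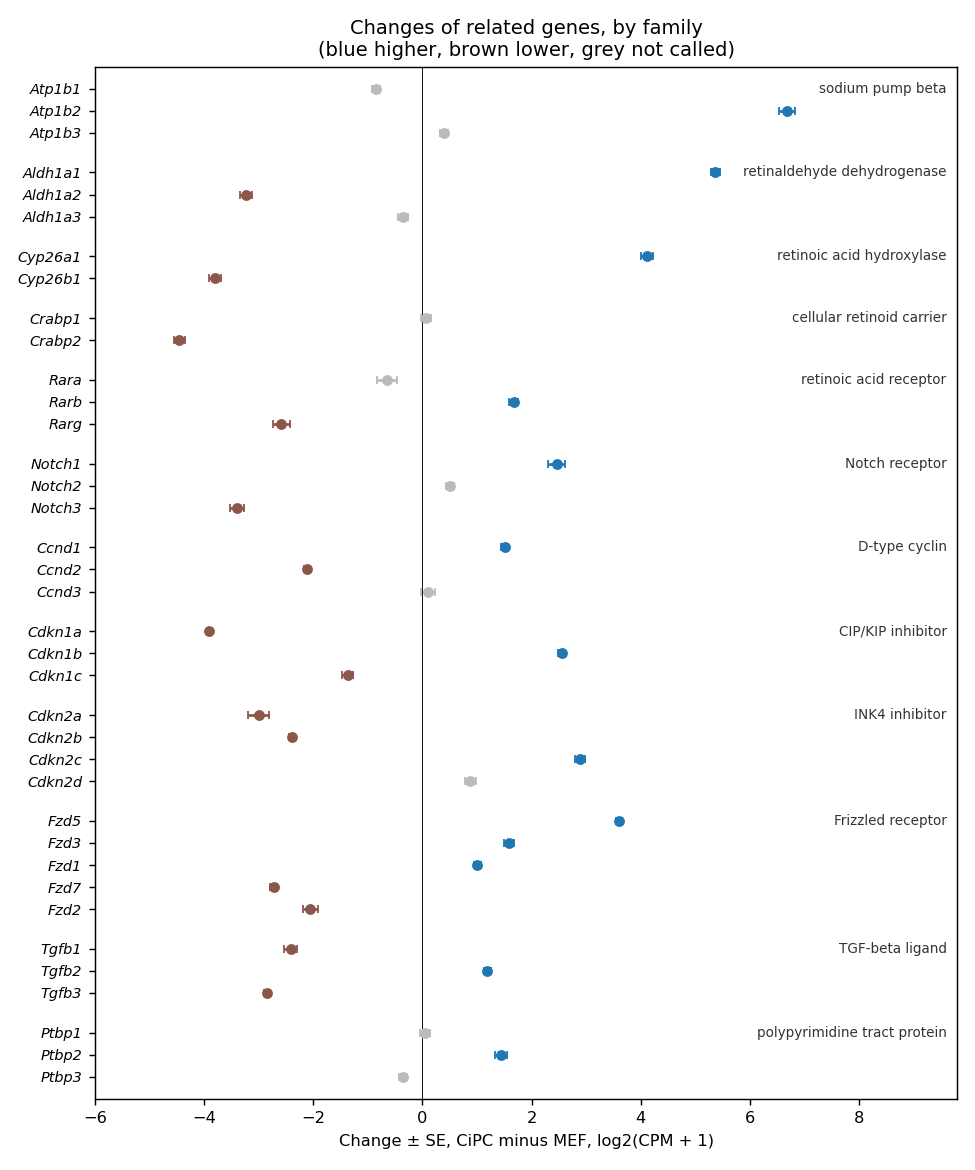
Change between CiPC and MEF with its SE (x axis, log2(CPM + 1) units, 3 libraries in each group) for related genes grouped by family, chosen after their values were seen. In several families a member that rose stands beside one that fell, as for Aldh1a1 and Aldh1a2, Notch1 and Notch3 or Ccnd1 and Ccnd2.

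Most cell cycle genes rose. Of 36 cell cycle and replication genes, 21 rose and 15 did not pass (median 1.26). Mki67 was at 74.4, 80.1 and 77.3 CPM in MEF and 380.3, 407 and 434 CPM in CiPC, against 4.48 ± 0.484 CPM in P5 rods. The mitotic genes Ccnb2, Top2a and Aurkb rose by 2.08 ± 0.09, 2.06 ± 0.061 and 1.95 ± 0.084, and the helicase genes Mcm5 and Mcm3 by 1.66 ± 0.067 and 1.62 ± 0.057. Of 16 inhibitors and cyclins that act in the G1 phase, 4 rose, 7 fell and 5 did not pass (median -0.11). Ccnd1, the cyclin of retinal progenitors, was at 283, 301 and 303 CPM in MEF and 907, 822 and 798 CPM in CiPC, and Ccnd2 at 1432, 1467 and 1548 and 327, 341 and 351 CPM. Cdkn1a, the p21 inhibitor, was at 1141, 1123 and 1174 and 75.02, 75.7 and 75.04 CPM, and Cdkn2a, of senescence, fell by 3.0 ± 0.19, with Cdkn2b (-2.39 ± 0.06), Cdkn1c (-1.37 ± 0.098) and the p53 targets Mdm2 (-2.72 ± 0.049) and Ccng1 (-3.06 ± 0.067). Cdkn1b, the p27 inhibitor, and Cdkn2c rose, by 2.55 ± 0.073 and 2.89 ± 0.092, with Rbl1 (1.59 ± 0.086), and Trp53 did not pass (-0.32 ± 0.059).

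Most cholesterol genes rose, against 16.5% of all tested genes. Glycolysis genes rose at close to that share. Most energy genes did not pass, and neither did most genes tested, of which 33.7% were called. Of 24 cholesterol genes, 20 rose and 4 did not pass (median 1.49). Dhcr7, which makes cholesterol in the last step, was at 12.04, 9.98 and 8.81 CPM in MEF and 65.03, 61.97 and 64.1 CPM in CiPC. Idi1, Insig1, Pmvk, Hmgcs1 and Lss rose by 2.31 ± 0.11, 2.3 ± 0.058, 2.26 ± 0.10, 2.06 ± 0.057 and 1.89 ± 0.19. Of 26 fatty acid genes, 11 rose, 1 fell, 13 did not pass and 1 was too low to test (median 0.57). Enzymes of long polyunsaturated chains, which photoreceptor membranes hold in plenty, were among those that rose, with Elovl2 at 3.3 ± 0.095, Elovl5 at 2.29 ± 0.062, Elovl4 at 1.52 ± 0.10, Fads2 at 1.45 ± 0.059 and Fads1 at 1.17 ± 0.051. Acsl6 (3.75 ± 0.11) and Acsl3 (3.16 ± 0.078), which activate fatty acids, rose too, Fabp3 fell by 1.79 ± 0.096, and Fasn was at 315 ± 32.3 against 350.0 ± 148 CPM (0.068 ± 0.25). Of 29 glycolysis genes, 5 rose, 3 fell and 21 did not pass (median 0.13). Aldoc, the neural and glial aldolase, rose by 3.85 ± 0.12 while Aldoa did not pass (-0.12 ± 0.072), and Pdk2 (1.29 ± 0.092), Pfkp (1.14 ± 0.071), Slc16a7 (1.08 ± 0.25) and Eno1 (1.5 ± 0.071), whose reads the near-identical Eno1b can share, rose as well. Pdk4 (-3.58 ± 0.12), Hk2 (-1.5 ± 0.14) and Slc16a3 (-1.39 ± 0.15) fell. None of the 26 nuclear genes of oxidative phosphorylation and none of the 13 mitochondrially encoded genes were called by limma, with changes of -0.63 to 0.54 and -0.086 to 0.51, although 14 and 7 of them had an adjusted p under 0.05, and as many an unadjusted p under 0.05, and so missed only the minimum change. Of 14 housekeeping genes, 3 fell and 11 did not pass (median -0.30), and those that fell were Rplp0 (-1.64 ± 0.12), Rpl13a (-1.52 ± 0.097) and Gusb (-1.3 ± 0.065).

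Acute phase genes moved in both directions, and interferon-stimulated genes rose more often than they fell. Cp, the copper-carrying ferroxidase, which retinal glia make, was at 7.45, 7.36 and 6.37 CPM in MEF, 177 ± 12.98 CPM at day 8 and 2925, 3109.6 and 3599 CPM in CiPC. Lcn2, which binds iron-carrying siderophores, was at 0, 0.0794 and 0.128 CPM in MEF and 399, 370.3 and 359 CPM in CiPC. Saa3 and C3, at 36137 ± 1926 and 2521 ± 152 CPM at day 8, were at 14.9 ± 1.85 and 4.95 ± 0.859 CPM in CiPC, below their day 8 level. Against MEF, Saa3 rose by 1.90 ± 0.13, while C3 did not pass. Of the 38 genes, 10 rose, 7 fell, 15 did not pass and 6 were too low to test (median 0.25). Steap4 (5.54 ± 0.12), Cxcl1 (3.32 ± 0.13), Ccl20 (2.37 ± 0.093) and Il33 (2.13 ± 0.16) rose, and Il1rl1, the receptor of Il33, fell by 7.28 ± 0.13, with Cxcl12 (-5.36 ± 0.077), C1s1 (-3.0 ± 0.16), Il6 (-2.96 ± 0.11), Serpina3n (-2.67 ± 0.094) and Ccl7 (-1.39 ± 0.11). Among 31 interferon-stimulated genes, 17 rose, 1 fell, 11 did not pass and 2 were too low to test (median 1.23). Oasl2 was at 1.72, 3.14 and 2.73 CPM in MEF and 60.9, 57.4 and 64.9 CPM in CiPC, and Irf7, Gbp3, Usp18 and Rsad2 rose by 2.16 ± 0.12, 2.7 ± 0.10, 2.57 ± 0.10 and 2.36 ± 0.13. Isg15 (0.22 ± 0.10) and Ifit3 (-0.19 ± 0.13) did not pass, and Ifi44 fell by 1.32 ± 0.19.

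Most genes of muscle and of macrophages fell. Of 21 muscle genes, 20 fell and 1 was too low to test (median -2.88), 13 of them tested through MEF alone. Their summed level was 520.5 to 552 CPM in MEF, 763 to 834 at day 8 and 15.7 to 18.3 in CiPC. Of 17 macrophage genes, 13 fell and 4 did not pass (median -1.74), with a sum of 639 to 657 CPM in MEF, 149 to 162 at day 8 and 243 to 265 in CiPC. Cx3cr1 fell by 4.19 ± 0.098, but Lyz2 was at 231, 224 and 219 CPM in MEF and 149, 161 and 176 CPM in CiPC and, like Cd68 (-0.086 ± 0.08) and Adgre1 (-0.36 ± 0.076), did not pass. Of 12 epithelial genes, 1 rose, 8 fell and 3 were too low to test (median -3.81). All 9 of those tested had passed the filter through a single group and so had to differ. The summed level of the list was 244 to 262 CPM in MEF and 5.52 to 6.69 in CiPC, with Upk3b and Msln, of the mesothelium, at 56.1 ± 3.01 and 59.5 ± 1.49 CPM in MEF and 0.0119 ± 0.0207 and 0.681 ± 0.108 in CiPC, while Cdh1 rose by 1.34 ± 0.13, to 2.29 ± 0.283 CPM. Of 13 Schwann, neural crest and oligodendrocyte genes, 4 rose, 6 fell and 3 did not pass (median -0.78), led by a fall of Sox10 (-4.36 ± 0.10), with Pdgfra at 9.01 ± 3.12 against 9.13 ± 0.716 CPM, and Olig1 (1.53 ± 0.11), S100b (1.52 ± 0.12), Pllp (1.36 ± 0.15) and Cnp (1.28 ± 0.078) rose. Of 11 endothelial genes, 2 rose, 1 fell, 5 did not pass and 3 were too low to test (median -0.12). Kdr, the receptor of vascular growth factor, was at 25.8, 24.9 and 26.3 CPM in MEF and 598, 624 and 654 CPM in CiPC, and Plvap rose by 3.22 ± 0.12, while the defining Pecam1 (0.759 ± 0.154 CPM), Cdh5 (0.878 ± 0.254) and Cldn5 (0.0663 ± 0.0595) were under 1 CPM in CiPC on average. Of 13 adipocyte genes, 1 fell, 5 did not pass and 7 were too low to test (median -0.025), with Plin1 at 226 ± 32.3 CPM at day 8 and 0.0683 ± 0.032 in CiPC. Of 10 cartilage and bone genes, 3 rose, 4 fell, 2 did not pass and 1 was too low to test (median -0.74), and Col10a1 fell by 4.4 ± 0.11. None of 5 erythroid genes was high enough to test. The part of the muscle, macrophage and epithelial transcripts of MEF in the falls of other genes was not tested.

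Some genes were all but absent on a side. Those under 1 CPM in every MEF library and at 50 CPM or more in every CiPC library numbered 41. Those named here were Npvf, Scg2, Lcn2, Rlbp1, Trpm3, Gnb3, Hkdc1, Chrdl1, Rbp3, A2m and Six3. Of these, those not yet described were Trpm3, a cation channel of retina and pigment epithelium, at 0.823 ± 0.117 against 232 ± 23.9 CPM, and Hkdc1, a hexokinase relative, at 0.21 ± 0.271 against 198 ± 21.1 CPM. Chrdl1, an antagonist of bone morphogenetic proteins in the retina, was at 0.32 ± 0.146 against 184 ± 16.999 CPM, and A2m, the protease inhibitor alpha-2-macroglobulin, at 0.542 ± 0.175 against 167 ± 10.2 CPM. Of the 41, 20 stayed under 1 CPM in all day 8 libraries and 14 were at 50 CPM or more in all P5 rod libraries. A level of 1 CPM is common, reached by 12983 to 12996 of the 15289 genes in a CiPC library. The share of genes that reach it in P5 rods is not given here. In all P5 rod libraries, 39 of the 41 were at 1 CPM or more. The other 2 were Npvf and Steap4, at 0.347 ± 0.0868 CPM in P5 rods, named after their values were seen. In the reverse direction, 17 genes were under 1 CPM in every CiPC library and at 50 CPM or more in every MEF library. They included Pappa, Il1rl1, Des, Loxl4, Msln, Upk3b and Hoxb9, described above. Serpinb9b, a serine protease inhibitor, was at 119 ± 5.73 against 0.628 ± 0.198 CPM, Lrrc15, a matrix-associated leucine-rich repeat protein, at 93.4 ± 1.06 against 0.415 ± 0.0321 CPM and Capn6, a calpain of embryonic muscle, at 64.2 ± 2.26 against 0.262 ± 0.0894 CPM. Slit3, an axon guidance ligand, was at 60.8 ± 2.65 against 0.421 ± 0.0386 CPM and Tnfrsf11b, osteoprotegerin, at 56.99 ± 2.4 against 0.146 ± 0.0443 CPM, with Clca3a1 (63.8 ± 2.97 against 0.233 ± 0.113) and the imprinted Zim1 (57.6 ± 3.24 against 0.721 ± 0.134). Of the 17, 13 were also under 1 CPM in all P5 rod libraries.

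Among the 15 largest rises at a mean of 10 CPM or more, Cspg5, a neural proteoglycan, was at 1.47, 0.897 and 1.17 CPM in MEF and 444, 419 and 384 CPM in CiPC, and Rgs8, a regulator of G protein signalling, rose by 7.27 ± 0.063. The 15 also held Crym, Npvf, Cp, Lcn2, Scg2, Rlbp1, Hkdc1, Slc1a3, Gnb3, Chrdl1, Col9a1 and Car2. Among the 15 largest falls, Ccdc80, a matrix protein, was at 537, 574 and 525 CPM in MEF and 3.11, 3.29 and 2.83 CPM in CiPC. Wls, the carrier that Wnt ligands need for secretion, was at 675, 648 and 646 and 5.97, 7.2 and 6.62 CPM. Gsn, the actin-binding gelsolin, and Tns1, tensin, which ties actin to adhesions, fell by 6.39 ± 0.067 and 6.23 ± 0.095. The 15 also held Pappa, Inhba, Lox, Il1rl1, Fbln2, Postn, Des, Col1a2 and Col1a1, with Eno1b, whose near-identical copy makes its value uncertain.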

How the data were processed

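RNA-seq of sorted cells was taken from the table the authors deposited, which holds normalized CPM per gene as a signal with an unknown scaling: column sums differ and values are not whole, so no depth, interval or count test was available. Per the submitters' processing notes, kallisto was used; its version and the index or build behind it are not given in the sources. The members and the gene lists were chosen with earlier results of these data known. Libraries were grouped by the labels.

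From the deposited signal, log2(CPM + 1) was computed for genes at 1 CPM or more in at least 3 of the 6 libraries and tested with limma 3.58.1 (R 4.3.3; empirical Bayes with trend, Benjamini-Hochberg adjustment), after a test on simulated data. Called means an adjusted p under 0.05 and a change of at least 1. A filter of this kind admits genes near 0 on 1 side, so list counts cover all members in the table. Members that passed through 1 group alone had to differ, and some lists where their number is not given hold them too. Named genes were the 15 largest changes each way at a mean of 10 CPM or more, genes near absent on a side, the largest changes of each list and its reference members, and genes that vary within CiPC; some genes these rules name are not reported here. Symbols are the table's, and coordinates are from GENCODE M21 (GRCm38), matched by Ensembl identifier. Promoters are from RefSeq (GRCm38.p6). A permutation test of 3 against 3 libraries cannot go below p = 0.10. Alternatives in scaling, pseudocount, filter, model and libraries were run.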

Additional observations from a re-analysis of the deposited data

How the results depend on the processing

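No named gene that was called had its direction reversed under any of the 19 alternatives, and no gene was called in the opposite direction under any of them. Calls themselves were lost, by 42 named genes with a pseudocount of 5 and by 38 in a test against a change of 1. Equal column sums lost 16 and quantile normalization 11. The count of genes called higher, 2264 as reported, was 1504 with a pseudocount of 5. With an adjusted p alone and no minimum change, 5165 were higher and 5766 lower, 10931 in all. Leaving out 1 library at a time gave 2265 to 2281 higher, 2334 to 2396 lower and 4605 to 4663 in all. Equal column sums gave 3110 higher and 1822 lower, and 63.1% of called genes were higher, against 48.9% as reported. In that setting, uncalled genes with a small negative change became positive, namely Aldoa (0.20), Axin2 (0.010), Cd68 (0.22), Ctnnb1 (0.21), Gnb1 (0.057), Hdac1 (0.15), Ifit3 (0.021), Mkl2 (0.080), Rest (0.15), Srf (0.084), Tgfbr1 (0.074), Trp53 (0.0036) and Vim (0.23). Quantile normalization gave Aldoa 0.58, Ctnnb1 0.60, Gnb1 0.36, Vim 0.45 and Pdgfra -0.073. With 1 library left out in turn, uncalled genes ranged over 0: Apoe from -0.094 to 0.27, Fasn from -0.24 to 0.37, Fgfr1 from -0.080 to 0.14, Pdgfra from -0.17 to 0.29, Ptbp1 from -0.031 to 0.14 and Smarca4 from -0.034 to 0.096. In the same way, 13 named genes missed the minimum change or the adjusted p in at least 1 such setting: Junb (smallest size 0.72), Slc16a7 (0.80), Rcor2 (0.88), Igfbp2 (0.89), Opn1sw (0.94), Mycn (0.94), Crybb3 (0.94), Jag2 (0.95), Fgf18 (0.96), Dusp4 (0.96), Slc7a7 (0.97), Id3 (0.97) and Ahdc1 (0.99). Removing the GC trend of each library, an alternative chosen after seeing the data, gave 2290 higher and 2295 lower, with Aldoa at 0.0046. The cause of these changes was not tested.

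Some list counts moved by over 1.5 times. With a pseudocount of 5 or a minimum of 5 CPM, 19 Hox genes were called in place of 34, 3 crystallins in place of 5 and 3 amacrine, horizontal and ganglion cell genes in place of 6; cone genes numbered 2 and 3 in place of 6, and the pseudocount left 7 fibroblast growth factor components higher in place of 12. With an adjusted p alone, 33 cell cycle genes were higher in place of 21, 18 acute phase genes in place of 10, 14 Notch components in place of 9, 13 BAF subunits in place of 5, 13 glycolysis genes in place of 5, 12 immediate early and heat shock genes in place of 6, and 27 Wnt components were lower in place of 16. The test against a change of 1 (treat) called 1718 higher and 1734 lower, with 3 glycolysis genes higher in place of 5.

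The replicate numbers did not pair the libraries: deviations of same-numbered libraries correlated at -0.293, -0.00848 and -0.253 across genes, and 0 of 6 libraries correlated best with their own number. With the number as a replicate block, 2264 genes were higher, 2361 lower and 4625 were called in all. Depth is unknown, so no limit from counting can be set for genes listed near 0.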

Other observations

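A few genes varied widely between the 3 CiPC libraries. Rpl36, a ribosomal protein gene, was at 81.9, 49.8 and 19.1 CPM in the 3 CiPC libraries and 110.2, 141 and 175 CPM in MEF, Junb at 23.2, 13.4 and 7.14 and 21.1, 32.5 and 38.5 CPM, and Map1s, which binds microtubules, at 26.2, 18.6 and 8.17 and 24.2, 28.1 and 42.9 CPM. The SD of Rpl36 between CiPC libraries was 1.04 log2 units, where the median gene had 0.101 in CiPC and 0.0724 in MEF over 9561 genes. Like these, Rps12-ps3 (421, 287 and 150.5 CPM in CiPC) and Ahdc1 (16.3, 14.7 and 6.42 CPM) were lowest in CiPC replicate 3, where Gm10273 (21.7, 39.1 and 78.6 CPM) was highest. Rps12-ps3 is named as a pseudogene but listed as protein coding in GENCODE M21. Gm10273 varied more in MEF, at 14.9, 24.4 and 0.0227 CPM, with an SD of 2.5 log2 units there and 0.907 in CiPC. The part of GC content in this spread was not tested.

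Values of a pair of near-identical copies differed between the groups. Eno1b was at 339, 356 and 349 CPM in MEF and 1.23, 0.175 and 0.128 CPM in CiPC, and Eno1, which encodes the glycolytic enolase, at 1189.6, 1249 and 1255 and 3845, 3441 and 3169.7 CPM.

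Some genes, chosen after their values were seen, did not lie between the ends at day 8. Dcn, decorin, was at 73.8 ± 1.7 CPM in MEF, 4770.3 ± 121 CPM at day 5, 5571 ± 431 CPM at day 8 and 10.7 ± 0.887 CPM in CiPC. Postn, periostin, was at 398 ± 4.16, 2667 ± 60.6, 3447 ± 239 and 2.29 ± 0.615 CPM in the same order. Fabp4, the fatty acid carrier of fat cells and macrophages, was at 3.36 ± 0.592, 228 ± 6.8, 2526 ± 204 and 1.6 ± 0.355 CPM.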
